A study of Mus musculus with 51 samples.

Results

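MHC class II molecules carry peptides from the endosomes of antigen-presenting cells to their surface, where CD4+ T cells read them. The 8 genes described here, H2-Aa, H2-Ab1, H2-Eb1, Cd74, Ciita, H2-DMa, H2-DMb1 and Ctss, were taken by name. No measured value entered that rule, but earlier results of these data were known when the genes were chosen. They are 8 of 23358 genes in the table of femurs from the vitamin C (VitC) experiment and 8 of 25938 genes in the table of femurs with conditional Tet knockouts. The study asked how VitC and the VitC-dependent TET enzymes, which turn 5-methylcytosine into 5-hydroxymethylcytosine (5hmC), act on bone. RNA-seq of flushed and minced femurs gave 3 libraries a group, each from a separate animal.

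The VitC experiment compared C57BL/6 wild type mice (WT) with mice homozygous for the Gulo tm1Mae allele, which lack the enzyme that makes VitC and depend on drinking water with 3.3 g/L of it. VitC+ mice drank it until they were killed at 20 weeks of age. VitC+/- mice drank it until week 15 and then spent 5 weeks without, and WT mice were also 20 weeks old. The Tet experiment used mice of 11 weeks that all carried Prrx1-Cre. By genotype the controls (Ctrl) differ from the Tet1 cKO, Tet2 cKO and Tet1/2 cKO groups in their wild type Tet alleles. Whether the mice were littermates is not given in the sources used here. The Prrx1 enhancer acts in limb mesenchyme, from which bone-forming cells descend and the blood cells that carry class II do not. Peaks of 5hmC (hMeDIP-seq), in 1 pooled list a group, came from femurs of Ctrl and Tet1/2 cKO mice and of both Gulo groups. MC3T3-E1 cells, a mouse calvarial pre-osteoblast line, gave lists of 5hmC, H3K27me3 and H3K9me3, either without VitC (VitC-) or in medium holding 50 µg/ml (VitC+).

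In B cells, dendritic cells and macrophages, the α chain (H2-Aa) and the β chain (H2-Ab1) form the I-A molecule, and H2-Eb1 encodes the β chain of I-E. The invariant chain, Cd74, fills the groove of new molecules and takes them to endosomes, where cathepsin S (Ctss) cuts it down to the CLIP fragment. H2-DM, made of H2-DMa and H2-DMb1, exchanges CLIP for peptides. Ciita is the transactivator that sets how much of these genes is transcribed: it does not bind DNA itself but joins the RFX, CREB and NF-Y factors that sit on the S, X and Y boxes of class II promoters.

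Before any result, 2 of the 9 VitC libraries went against their labels at Gulo, the gene that the allele disrupts. Gulo stood at 0.522, 0.486 and 0 RPKM (reads scaled to the length of the gene and the depth of the library) in WT, at 0.180, 0.0352 and 0.0294 in VitC+ and at 0.0126, 0.0141 and 0.0186 in VitC+/-. The library labelled WT replicate 3 therefore had no Gulo reads and that labelled VitC+ replicate 1 had more than any other Gulo mutant library, and the results below were also computed without both. WT replicate 1 was the shallowest library, at 7.61 M reads (M, mega), against 31.2 to 47.6 M in the others. In the Tet femurs, Tet1 stood at 374 to 435 normalized counts in Ctrl and at 415 to 485 in Tet1/2 cKO, and Tet2 at 2236 to 2512 and 1851 to 2970, so counts over the whole genes did not show the deletions.

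Where RefSeq gives a promoter for a member, the letters of the boxes can be read directly. Promoter entries on GRCm38.p6 were found for 5 of the 8 members, and those of H2-Aa, H2-Eb1 and H2-DMb1 are shown as examples of members that fell after VitC withdrawal, beside that of Ctss, which did not pass the test. H2-DMa, which fell too, is described after them. H2-Ob, a relative described below, is added as a chain outside the 8. Each sequence is the 160 bases before the start, 5′ to 3′ on the strand of the gene. The H2-Aa piece is chr17:34287824-34287983 on the minus strand. The others lie on the plus strand, at chr17:34305707-34305866 for H2-Eb1, chr17:34153031-34153190 for H2-DMb1, chr17:34238745-34238904 for H2-Ob and chr3:95526626-95526785 for Ctss. Capitals mark 3 kinds of letters on either strand: CCAAT (also read as ATTGG), the core of the Y box; AGNAAC, which includes AGCAAC, a core found in X1 boxes; and TGATG or TGACG (also read as CATCA or CGTCA), found in X2 boxes.
H2-Aa: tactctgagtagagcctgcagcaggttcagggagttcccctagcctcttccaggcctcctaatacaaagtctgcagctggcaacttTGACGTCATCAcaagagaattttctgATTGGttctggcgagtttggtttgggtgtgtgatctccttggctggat
H2-Eb1: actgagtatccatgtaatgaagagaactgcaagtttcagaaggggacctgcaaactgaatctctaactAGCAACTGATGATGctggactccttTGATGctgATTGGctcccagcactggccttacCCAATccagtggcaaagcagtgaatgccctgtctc
H2-DMb1: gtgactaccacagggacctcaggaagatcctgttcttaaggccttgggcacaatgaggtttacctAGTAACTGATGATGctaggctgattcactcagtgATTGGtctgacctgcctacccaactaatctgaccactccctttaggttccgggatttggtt
H2-Ob: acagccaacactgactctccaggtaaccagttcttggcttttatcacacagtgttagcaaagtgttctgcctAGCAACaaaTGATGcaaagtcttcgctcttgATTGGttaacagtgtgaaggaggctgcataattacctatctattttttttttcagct
Ctss: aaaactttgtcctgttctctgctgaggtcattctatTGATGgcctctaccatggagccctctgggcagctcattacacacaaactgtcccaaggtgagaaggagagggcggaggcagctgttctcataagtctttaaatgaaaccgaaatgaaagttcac

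H2-Eb1, H2-DMb1 and H2-Ob held all 3 kinds, with AGNAAC first, then TGATG and last CCAAT. From the first AGNAAC to the first CCAAT there were 33 bases in H2-Eb1, 34 in H2-DMb1 and 31 in H2-Ob. H2-Aa held 3 overlapping matches to TGACG or TGATG, the first lying 26 bases before its CCAAT, and no AGNAAC. Ctss held 1 TGATG and neither of the other letters. Both entries for H2-DMa start upstream of the gene as the VitC table places it. The first of them held no match in its 250 bases, and the second held CCAAT at -198 and TGATG at -142 from its start, the reverse of the order above, and no AGNAAC. Of the relatives not shown, H2-DMb2 held CCAAT and TGATG but no AGNAAC, and H2-Oa held AGNAAC and CCAAT but no TGATG or TGACG. B2m, the light chain of class I, held all 3 kinds too, with AGNAAC last. Over 32851 promoters of 250 bases, 33.8% held CCAAT, 42.3% AGNAAC, 12.2% AGCAAC, 46.9% TGATG or TGACG and 6.78% all 3 kinds, so each match alone was common. These are matches of letters, not measured sites.

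After VitC withdrawal the class II chains fell together. All levels of the VitC femurs are RPKM divided by a scaling factor for each library (median of ratios), and tests are limma on log2(RPKM + 0.5) over 12586 genes with Benjamini-Hochberg adjustment, where a gene is called at an adjusted p under 0.05. The 6 members called lower in VitC+/- than in VitC+ were H2-Aa, H2-Ab1, H2-Eb1, Cd74, H2-DMa and H2-DMb1, against a background of 7.52% of all genes called lower. The same 6 and Ciita, 7 of 8, were called lower in VitC+/- than in WT, where 15.9% of all genes were. The 2 comparisons share the VitC+/- libraries. In both, the VitC+/- libraries of 7 members, all but Ctss, lay below every library of the other group, as did those of 19.1% of all genes against VitC+ and 21.3% against WT. Over the 8 members the median log2 fold change was -1.32 against VitC+, where that of all genes was 0.02, and -1.13 against WT, where it was 0.01.

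**Figure D1:**
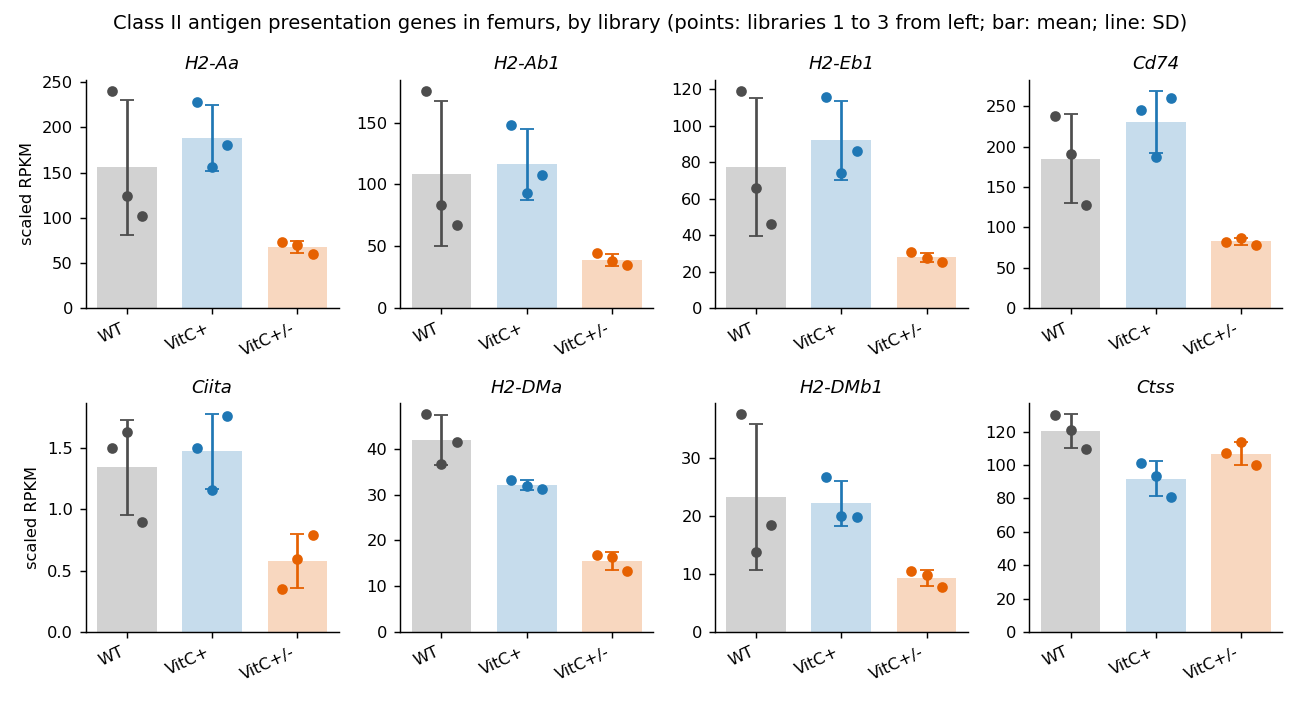
Scaled RPKM (linear axes from 0) of the 8 members in the 9 VitC femur libraries, with points for replicates 1 to 3 from the left, bars at the group mean and lines for ± 1 SD (n = 3). The VitC+/- points of every member but Ctss lie below all WT and VitC+ points.

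H2-Aa, the I-A α chain, stood at 241, 124 and 102 scaled RPKM in WT, at 228, 156 and 180 in VitC+ and at 73.6, 70.1 and 60.4 in VitC+/-. All 3 VitC+/- libraries lay below the other 6, and WT replicate 1 was the highest of all. Its level was 2.73-fold lower in VitC+/- than in VitC+ (log2 fold change -1.45, SE 0.29, limma adjusted p = 0.0151) and 2.13-fold lower than in WT (-1.09, SE 0.29, adjusted p = 0.0200).

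H2-Ab1, its β chain, followed the same libraries, with 176, 83.3 and 66.8 in WT, 148, 92.9 and 108 in VitC+ and 44.5, 38.0 and 34.6 in VitC+/- (scaled RPKM). The fall was 2.91-fold against VitC+ (log2 -1.54, SE 0.33, limma adjusted p = 0.0183) and 2.54-fold against WT (-1.35, SE 0.33, adjusted p = 0.0140). The VitC+/- libraries again did not overlap either group.

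H2-Eb1 fell the most of the 8 against VitC+, 3.21-fold (log2 -1.68, SE 0.31, limma adjusted p = 0.0111), and 2.54-fold against WT (-1.35, SE 0.31, adjusted p = 0.0108). Its scaled RPKM were 119, 66.1 and 46.2 in WT, 116, 73.9 and 86.1 in VitC+ and 30.6, 27.5 and 25.5 in VitC+/-. Its partner α chain, H2-Ea, was listed at 0 in all 9 VitC libraries. C57BL/6 mice are known to carry a defective H2-Ea gene, so that H2-Eb1 RNA is present in them without I-E on the surface.

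Cd74 was the most abundant member in WT and in VitC+. It stood at 237, 191 and 128 scaled RPKM in WT, at 245, 187 and 260 in VitC+ and at 82.5, 87.3 and 78.0 in VitC+/-, the last a far narrower range than either of the others. It was 2.76-fold lower than in VitC+ (log2 -1.46, SE 0.23, limma adjusted p = 0.00591) and 2.17-fold lower than in WT (-1.12, SE 0.23, adjusted p = 0.00658).

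Of the DM chains, H2-DMa had the lowest adjusted p of the 8 in both comparisons. Its scaled RPKM were 47.6, 36.6 and 41.6 in WT, 33.3, 31.9 and 31.3 in VitC+ and 16.9, 16.5 and 13.3 in VitC+/-. Here the 3 groups did not overlap at all, with WT above VitC+ and VitC+ above VitC+/-. The fall was 2.04-fold against VitC+ (log2 -1.03, SE 0.14, limma adjusted p = 0.00392) and 2.64-fold against WT (-1.40, SE 0.14, adjusted p = 0.000452).

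H2-DMb1 was more variable, with 37.6, 13.8 and 18.5 scaled RPKM in WT, 26.7, 20.1 and 19.8 in VitC+ and 10.5, 9.83 and 7.83 in VitC+/-. It was 2.29-fold lower than in VitC+ (log2 -1.20, SE 0.32, limma adjusted p = 0.0384) and 2.22-fold lower than in WT (-1.15, SE 0.32, adjusted p = 0.0227). H2-DMb2, a near-identical neighbour, stood at 3.23 to 4.64 in WT, 1.91 to 3.42 in VitC+ and 1.13 to 2.01 in VitC+/-. How the counting split reads between these paralogs is not given in the sources used here.

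Ciita, the transactivator, was the lowest member, at 1.50, 1.63 and 0.898 scaled RPKM in WT, 1.50, 1.15 and 1.76 in VitC+ and 0.352, 0.597 and 0.786 in VitC+/-. The VitC+/- libraries lay below all the others, but the test was close to its threshold on either side. The log2 fold change was -0.88 against VitC+ (SE 0.26, limma adjusted p = 0.0508) and -0.77 against WT (SE 0.26, adjusted p = 0.0465). Ciita passed the filter on low values, 1 RPKM in 3 libraries, only through WT and VitC+ libraries, and the pseudocount of 0.5 understates the change of a gene at this level.

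Ctss did not move with the chains. Its scaled RPKM were 130, 121 and 110 in WT, 101, 93.6 and 80.6 in VitC+ and 107, 114 and 99.8 in VitC+/-, so the VitC+/- libraries overlapped both groups. The log2 difference was 0.22 against VitC+ (95% interval -0.08 to 0.53, limma adjusted p = 0.299) and -0.17 against WT (-0.47 to 0.14, adjusted p = 0.374). Cathepsin S is also a general lysosomal protease of monocytes and macrophages.

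**Figure D2:**
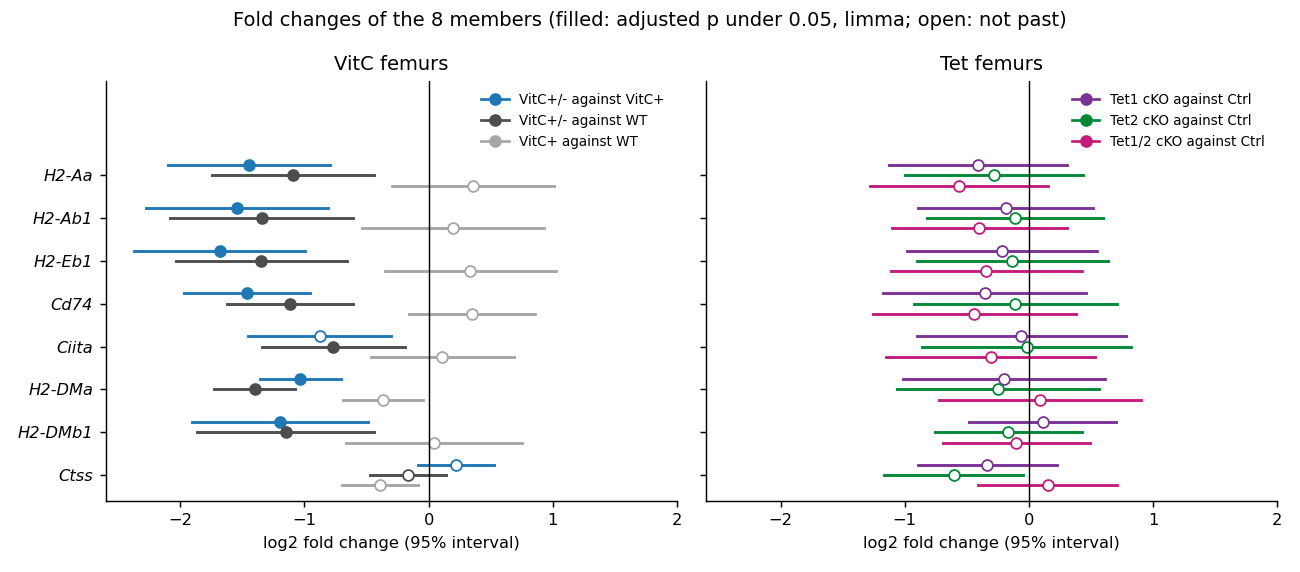
Log2 fold changes (x axis, limma, with 95% intervals as lines) of the 8 members in the 3 comparisons of the VitC femurs on the left and the 3 of the Tet femurs on the right, filled where the adjusted p is under 0.05. Against either group the VitC+/- intervals of 7 members lie below 0 and that of Ctss spans it, and in the Tet femurs all intervals but that of Ctss in Tet2 cKO span 0.

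Between VitC+ and WT no member was called, and neither was any other of the 12586 genes (0.0%), while 22.0% of genes had an unadjusted p under 0.05. Of the members, H2-DMa (log2 -0.37, unadjusted p = 0.0286) and Ctss (-0.39, unadjusted p = 0.0176) were among those by limma, with adjusted p of 0.181 and 0.152. In both genes all VitC+ libraries lay below all WT libraries, as 14.2% of all genes did. The other 6 members differed by 0.04 to 0.36 on the log2 scale, higher in VitC+, with overlapping groups.

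The VitC libraries whose Gulo level went against the label bore on part of this. Without both, 3 members were called lower in VitC+/- than in VitC+, namely H2-Eb1 (log2 -1.50, limma adjusted p = 0.0392), Cd74 (-1.41, 0.0259) and H2-DMa (-1.01, 0.0474). H2-Aa stood at -1.30 (adjusted p = 0.0651), H2-Ab1 at -1.36 (0.0693) and H2-DMb1 at -1.06 (0.172). Against WT, 5 members stayed called without them, H2-Aa, H2-Ab1, H2-Eb1, Cd74 and H2-DMa, at log2 -1.34 to -1.65. Leaving out VitC+ replicate 1 alone, or VitC+/- replicate 1 alone, also left 3 members called against VitC+.

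RPKM is per length, so the members can also be ranked by level, and the order differed between groups. In VitC+ the order of means was Cd74 (231 ± 38.6, SD, n = 3), H2-Aa (188 ± 36.7), H2-Ab1 (116 ± 28.5), H2-Eb1 (91.9 ± 21.5), Ctss (91.8 ± 10.4), H2-DMa (32.1 ± 1.01), H2-DMb1 (22.2 ± 3.92) and Ciita (1.47 ± 0.302). In VitC+/- Ctss came first, at 107 ± 6.97, above Cd74 at 82.6 ± 4.69 and H2-Aa at 68.0 ± 6.83, and no neighbours in that order overlapped. In WT Ctss stood at 120 ± 10.2, below Cd74 and H2-Aa, and the ranges of neighbours overlapped except for H2-DMb1 and Ciita.

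Within a library the chains kept their proportions better than their levels. H2-Aa over H2-Ab1 lay between 1.37 and 1.84 in all 9 libraries and H2-Eb1 over H2-Ab1 between 0.678 and 0.799, while H2-Ab1 itself ranged from 34.6 to 176 scaled RPKM. H2-Ab1 over Ctss was 0.610 to 1.35 in WT, 0.993 to 1.46 in VitC+ and 0.334 to 0.416 in VitC+/-. This ratio does not depend on how a library is scaled, and its VitC+/- values lay below all the others. Over the 9 libraries, which share the 3 groups, Pearson's r with H2-Aa on the log2 scale was 0.993 for H2-Ab1, 0.995 for H2-Eb1, 0.964 for Cd74, 0.949 for H2-DMb1, 0.822 for Ciita, 0.821 for H2-DMa and -0.06 for Ctss.

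The nearest relatives outside the 8 make up H2-DO, which restrains H2-DM and is made mainly in B cells. H2-Ob stood at 8.05, 3.01 and 3.99 scaled RPKM in WT, 3.19, 4.08 and 5.17 in VitC+ and 0.855, 1.07 and 1.30 in VitC+/-. It fell against both groups (log2 -1.55, limma adjusted p = 0.0165 and -1.71, 0.00460). H2-Oa stood at 2.37 to 5.80, 2.83 to 3.30 and 1.04 to 1.53 and fell as well (-1.01, 0.0461 and -1.17, 0.0144). H2-DMb2 fell against WT (-0.99, adjusted p = 0.0167) and differed by -0.56 from VitC+ (0.158). Whether these 2 changes differ was not tested.

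The 7 genes of the RFX, NF-Y and CREB factors on class II promoters gave 0 calls against VitC+ and 2 lower against WT. Nfya, the subunit of NF-Y that contacts CCAAT, was lower than in WT (log2 -0.82, limma adjusted p = 0.0114), as was Creb1 (-0.71, 0.0148). Nfyc differed by -0.31 against VitC+ (adjusted p = 0.0937) and -0.33 against WT (0.0528). The median of the list was -0.12 and -0.33.

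Of 8 genes that break down antigen or steer class II in endosomes, 2 fell and 1 rose against VitC+, and 1 fell and 4 rose against WT. Of all 12586 genes, 746 were called higher against VitC+ and 1931 against WT, which is also the background for the lists below. Cathepsin L (Ctsl), which cuts the invariant chain in thymic epithelium, rose by 1.23 on the log2 scale against VitC+ (limma adjusted p = 0.00297) and by 1.92 against WT (0.000185). Cathepsin B (Ctsb) and the thiol reductase Ifi30 rose against WT (0.63, adjusted p = 0.0380 and 0.51, 0.0462). Against VitC+, Ctsh fell (-0.54, adjusted p = 0.0382) and so did Sppl2a (-0.72, 0.0493), the protease that clears the last invariant chain stub. Ctsd, the most abundant of the list, differed by 0.47 and 0.34 (adjusted p = 0.162 and 0.237).

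The 5 costimulatory genes that accompany class II on presenting cells gave 0 calls against VitC+ (Icosl -0.25, limma adjusted p = 0.459; Cd83 0.33, 0.320). Against WT only Cd83 was called, and it was higher (1.03, adjusted p = 0.00723). Cd86 differed from WT by -0.02 (adjusted p = 0.943).

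Of 11 genes of MHC class I presentation, the path for peptides from the cytosol, 2 fell against VitC+ and 5 against WT, and 0 rose. B2m, the light chain of class I, fell by 0.79 on the log2 scale against VitC+ (limma adjusted p = 0.0199) and by 0.77 against WT (0.00998). Psmb9 fell by 1.14 against VitC+ (adjusted p = 0.0359) and Psmb8 by 1.18 against WT (0.00247), both subunits of the immunoproteasome. The heavy chain H2-K1 differed by -0.46 and -0.53 without passing (adjusted p = 0.237 and 0.126). The list's median, -0.43 and -0.53, was less far from 0 than that of the 8 class II members. This difference between the lists was not tested.

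Interferon-γ induces Ciita in many cells. Of 9 tested genes of its axis, Irf8, a transcription factor of monocytes, dendritic cells and B cells, was the only call against VitC+ (log2 -1.02, limma adjusted p = 0.00521). Irf8 also fell against WT (-1.68, limma adjusted p = 0.000257). The receptor chains Ifngr1 (0.18 and -0.11, adjusted p = 0.631 and 0.741) and Ifngr2 (-0.24 and -0.17, 0.414 and 0.508) were not called.

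**Figure D3:**
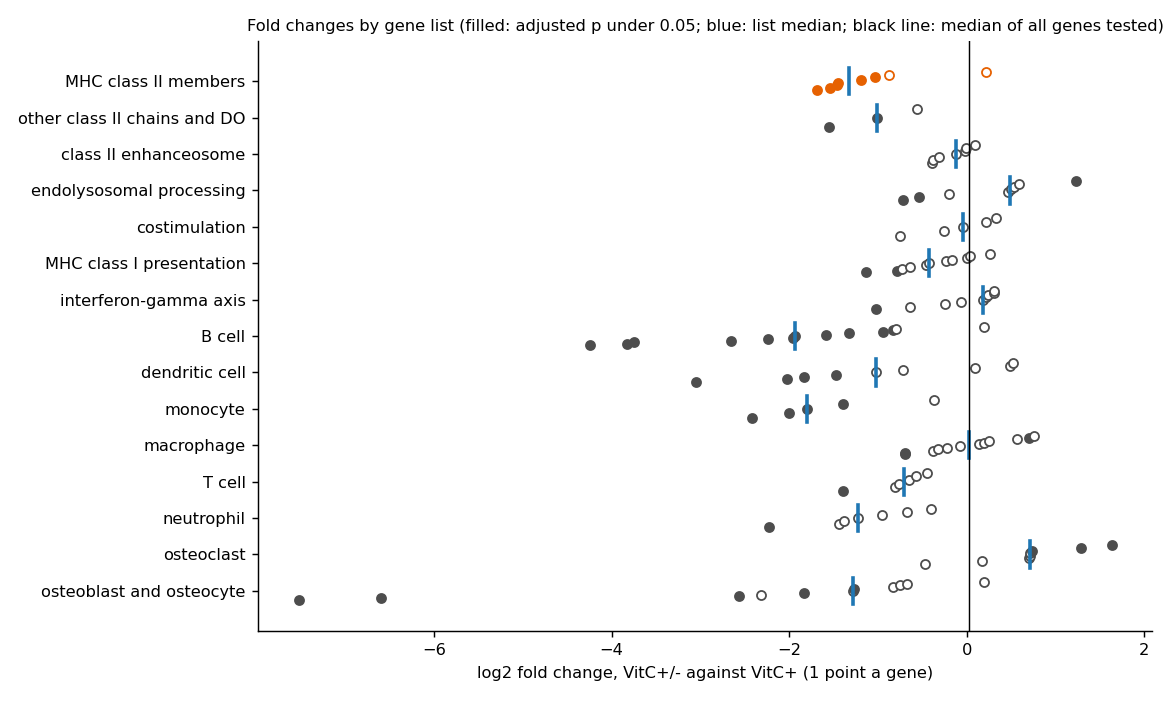
Log2 fold changes in VitC+/- against VitC+ (x axis), with 1 point a gene, 1 line a list, filled points for a limma adjusted p under 0.05, a blue mark at the median of each list and a black line at the median of all genes. B cell and monocyte markers lie to the left with the class II members, and osteoclast markers mostly to the right.

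Femur RNA is a mixture, and in it fewer cells of a type and less RNA per cell cannot be told apart. Lists of markers for cells that can carry class II differed from each other: most B cell and monocyte markers fell, fewer dendritic cell markers did, and macrophage markers went both ways. Of 13 tested B cell markers 11 fell against VitC+ and 11 against WT, and their summed scaled RPKM was 142 to 252 in WT, 129 to 220 in VitC+ and 38.1 to 66.4 in VitC+/-. Cd79a, part of the B cell receptor, fell by 2.23 (limma adjusted p = 0.0172) and 2.07 (0.0102) on the log2 scale, and Cd37 by 0.94 (0.0350) and 1.61 (0.00202). Vpreb1, Vpreb3, Igll1 and Fcer2a, 4 of the 13, had no VitC+/- library at 1 RPKM and passed the filter only through the other groups, and the first 3 of them are among the 11 lower against VitC+. Ebf1, which stromal cells also express, differed by 0.19 and 0.62 (adjusted p = 0.627 and 0.0739).

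Of 9 tested dendritic cell markers 4 fell against VitC+, and 4 fell and 1 rose against WT, and their sum was 31.8 to 63.8, 33.9 to 58.6 and 14.8 to 22.1 scaled RPKM in WT, VitC+ and VitC+/-. Cd209a, a lectin of monocyte-derived dendritic cells, fell by 3.05 (limma adjusted p = 0.000378) and 2.79 (0.000242). Cd209a and Clec9a had no VitC+/- library at 1 RPKM, so they passed the filter only through the groups where they were high, and their fall supports nothing on its own. Siglech, of plasmacytoid dendritic cells, fell by 1.83 (0.00423) and 2.35 (0.000604). Clec10a fell by 2.02 (0.0417) and 1.68 (0.0435). Itgax, which encodes CD11c, differed by -0.71 against VitC+ (0.127), and Flt3 by 0.49 and -0.08 (0.195 and 0.828).

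Of 5 monocyte markers 4 fell against VitC+ and 5 against WT, with sums of 371 to 456, 194 to 237 and 85.4 to 198 scaled RPKM in WT, VitC+ and VitC+/-. Ccr2 fell by 1.80 (limma adjusted p = 0.00297) and 2.40 (0.000350) and Ms4a4c by 2.01 (0.00171) and 2.69 (0.000227). Macrophage markers did not fall as a list. Of 12, 2 fell and 1 rose against VitC+, 2 fell and 3 rose against WT, and their sum was 225 to 322, 299 to 428 and 391 to 469. Csf1r, the receptor for M-CSF, rose by 0.70 (0.0377) and 1.23 (0.00204), whereas Adgre1, the gene of F4/80, fell by 0.69 (0.0467) and 0.61 (0.0409). C1qa differed by -0.08 and 0.22 (0.870 and 0.572).

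T cells carry no class II in mice but read it. Of 6 tested T cell markers 1 fell against VitC+, Cd3g (log2 -1.39, limma adjusted p = 0.0402), and Cd3e differed by -0.76 (0.118). Against WT 2 fell, Cd3g (-1.87, 0.00632) and Lck (-1.18, 0.0271). The bone cells themselves also moved. Of 11 osteoblast and osteocyte markers 5 fell against VitC+, and 3 fell and 1 rose against WT. The osteoblast product Bglap fell by 7.53 (0.000680) and 5.51 (0.00116), Dmp1, an osteocyte gene, fell by 1.27 against VitC+ (0.0186), and the matrix protein gene Ibsp rose by 1.84 against WT (0.0261). Of 8 osteoclast markers 3 rose against VitC+ and 7 against WT, among them Ctsk by 1.29 (0.0210) and 2.84 (0.000421). Over all 12586 genes 746 and 1931 were called higher.

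Of 7 tested neutrophil markers 1 fell against VitC+ (Ltf, log2 -2.23, limma adjusted p = 0.00734) and 7 against WT, with sums of 50834 to 71837 in WT, 28621 to 45258 in VitC+ and 6754 to 22870 scaled RPKM in VitC+/-. Muscle markers gave 0 calls, with sums from 2.26 to 666 that differed between libraries of 1 group. Adipocyte markers gave 0 calls against VitC+ and 4 higher against WT, and their sum reached 2371 in VitC+/- replicate 2. The part of any of these cells in the fall of the members was not tested.

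The genes whose profile over the 9 VitC libraries was most like the mean of the 8 members, by Pearson's r on the log2 scale, were Slamf8 (r = 0.976), Cyb5rl (0.976), 1500009L16Rik (0.970), Apip (0.969), Abcg3 (0.968), Gimap4 (0.965), Plk1s1 (0.964), Cradd (0.963), Zbtb40 (0.960) and Ddx17 (0.959). The median over all genes was -0.0542, and the 9 libraries fall into 3 groups that carry much of such an r. Slamf8 (0.613), Abcg3 (0.772) and 1500009L16Rik (0.860) had VitC+/- means under 1 scaled RPKM. They needed WT or VitC+ libraries to pass the filter, which favours a high r. In the 12 Tet libraries, which had no part in the choice, r for the same genes ran from -0.605 for Plk1s1 to 0.638 for Abcg3. Slamf8, a receptor of myeloid cells, had 0.396 there.

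In the Tet femurs no member was called in any knockout. Tests are limma on log2(normalized count + 1) over 16780 genes and share the Ctrl libraries. Over all genes 0.0119% were called in Tet1 cKO, 0.0119% in Tet2 cKO and 0.0% in Tet1/2 cKO, and 2.28%, 2.19% and 5.05% had an unadjusted p under 0.05. On the reads recovered from the normalized counts, edgeR called 0, 1 and 0 genes and DESeq2 13, 15 and 11, no member among them.

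**Figure D4:**
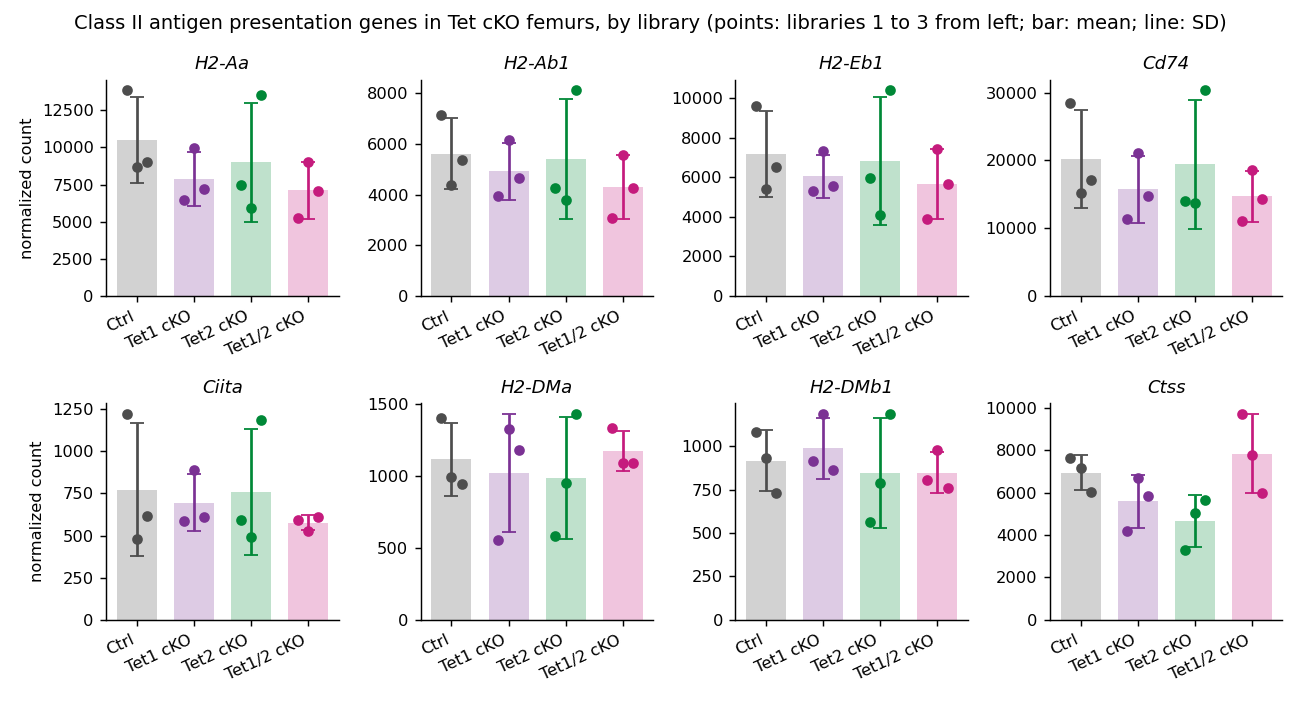
DESeq2-normalized counts (linear axes from 0) of the 8 members in the 12 Tet femur libraries, with points for replicates 1 to 3 from the left, bars at the group mean and lines for ± 1 SD (n = 3). The knockout groups overlap Ctrl in every member, except for Ctss in Tet2 cKO.

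H2-Aa stood at 13861, 8693 and 9001 normalized counts in Ctrl, 6482, 9962 and 7169 in Tet1 cKO, 7484, 5949 and 13544 in Tet2 cKO and 5236, 9037 and 7069 in Tet1/2 cKO. The groups overlapped, and Ctrl replicate 1 and Tet2 cKO replicate 3 were the highest libraries. The log2 differences from Ctrl were -0.41, -0.28 and -0.57 for Tet1, Tet2 and Tet1/2 cKO.

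Cd74 was high in the same libraries, with 28514, 15162 and 17055 in Ctrl, 11329, 21089 and 14778 in Tet1 cKO, 14072, 13765 and 30382 in Tet2 cKO and 11092, 18622 and 14346 in Tet1/2 cKO (normalized counts). It differed from Ctrl by -0.35, -0.11 and -0.44 on the log2 scale. Ciita, at 1223, 479 and 617 in Ctrl and 591, 526 and 612 in Tet1/2 cKO, differed by -0.06, -0.02 and -0.31. The first Ctrl value stood apart from the other Ctrl libraries.

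H2-Ab1 differed by -0.19, -0.11 and -0.40 in Tet1, Tet2 and Tet1/2 cKO, H2-Eb1 by -0.22, -0.13 and -0.34, H2-DMa by -0.20, -0.25 and 0.09 and H2-DMb1 by 0.11, -0.16 and -0.10 (log2). Ctss, at 7631, 7176 and 6021 normalized counts in Ctrl, was 3307, 5012 and 5655 in Tet2 cKO. These groups did not overlap, as in 3.43% of all genes in that direction, and the log2 difference was -0.60 (limma unadjusted p = 0.0364, adjusted p = 1.00). Adjusted p of all members was between 0.723 and 1.00, and no gene of any other list was called.

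The chains moved together between Tet libraries too, although no group difference was called. Over the 12 libraries r with H2-Aa was 0.967 for H2-Ab1, 0.961 for H2-Eb1, 0.962 for Cd74, 0.793 for Ciita, 0.617 for H2-DMb1, 0.437 for H2-DMa and 0.14 for Ctss. Dendritic cell markers differed in how they followed the mean of the 8 members. For Itgax r was 0.728 here and 0.889 in the VitC femurs, and for Cd209a 0.420 and 0.959. For Flt3 it was 0.394 and -0.293, and for Zbtb46 0.473 and -0.684. Cd209a passed the VitC filter only through the groups where it was high. Markers of other cells differed within their lists as well. Of B cell markers, Cd79b had 0.803 here and 0.843 in the VitC femurs, and Ebf1 0.40 and -0.53. Of macrophage markers, C1qa had 0.874 and 0.194, Adgre1 0.75 and 0.77 and Csf1r 0.595 and -0.756. These correlations are descriptions over libraries that share groups and controls.

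5hmC around the members was read from the peak lists as the length covered by peaks within 5 kb of each start. A gene was called at a ratio of 2 or more between lists after adding 500 bp to each length, over 21749 autosomal genes. Each list pools the animals or cultures of its group, so there is no replicate and no test. Between VitC+/- and VitC+ femurs 0 of 8 members were called, where 2.52% of genes were lower and 1.56% higher.

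Within 5 kb of H2-Aa, H2-Eb1, H2-DMa and H2-DMb1 neither VitC list had a 5hmC peak. Ciita had 3 peaks in each, covering 1226 bp in VitC+/- and 1284 bp in VitC+, with a highest fold enrichment of 14.7 and 12.04. Ctss had 1 peak in each (771 and 862 bp). At Cd74 there was 1 peak of 393 bp against 2 of 739 bp in all. None of the 7 members whose RNA was called lower in either comparison changed its covered 5hmC length by the fold used. Of these, however, only Ciita and Cd74 could have been called lower. There was no peak in the window of 4 of them in either list. H2-Ab1 had 451 bp in VitC+, and with 500 bp added even its full loss would not reach the fold. For these genes the count cannot show a loss of 5hmC.

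H2-Ab1 had 1 peak of 400 bp in VitC+/- and 1 of 451 bp in VitC+, with fold enrichments of 3.09 and 3.39. A peak at the same place was in the Ctrl list (858 bp, 4.57), in the Tet1/2 cKO list (512 bp, 3.95) and in the list of MC3T3-E1 cells without VitC (267 bp, 2.82). The stretch common to these 5 peaks is chr17:34265682-34265948 (mm10), in the intron between exons 2 and 3 of H2-Ab1. It is shown on the plus strand with CG pairs in capitals, as an example of a recurring interval. It is not the one found in the most lists, since an interval within Ciita was in every 5hmC list. The H2-Ab1 stretch holds 4 CG pairs, and a run of repeated CCTT follows them near its end.
H2-Ab1 intron: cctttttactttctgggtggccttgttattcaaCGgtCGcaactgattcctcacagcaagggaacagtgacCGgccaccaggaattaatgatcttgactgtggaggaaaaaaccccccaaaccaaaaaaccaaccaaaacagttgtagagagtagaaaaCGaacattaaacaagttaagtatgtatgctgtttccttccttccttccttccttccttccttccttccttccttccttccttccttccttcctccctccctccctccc

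In Tet1/2 cKO femurs 5 of 8 members were called lower in covered 5hmC length than in Ctrl, where 28.5% of all genes were lower and 0.0644% higher. Ctss had 366 bp against 3566 bp, H2-DMb1 none against 2001 bp and H2-DMa 1571 bp against 4185 bp. H2-Eb1 had 346 bp against 1230 bp. The invariant chain gene had 1482 bp against 3489 bp. Ciita (1332 and 2127 bp) and H2-Ab1 (512 and 858 bp) were not called, and H2-Aa had no peak in either. The lists as wholes covered 123 Mb and 273 Mb.

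**Figure D5:**
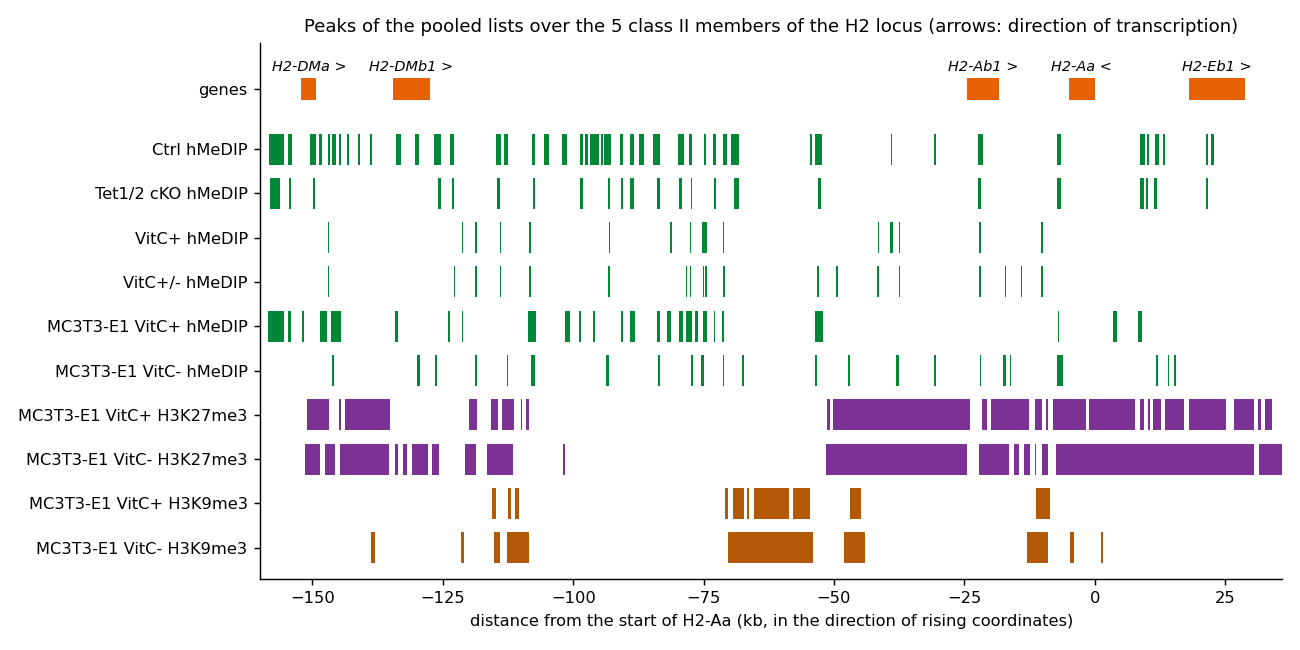
Peaks of each pooled list (1 line a list) over the 5 members of the H2 locus, drawn to scale with the distance in kb from the start of H2-Aa on the x axis. H3K27me3 of MC3T3-E1 cells covers 47.3% of the block with VitC and 54.9% without, while femur 5hmC appears as short separate peaks.

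The 5 genes of the block lie within chr17:34130671-34321674, a stretch of 191004 bp that also takes in 5 kb on either side. 5hmC peaks covered 18.6% of it in Ctrl (46 peaks) and 6.39% in Tet1/2 cKO (23 peaks), and 2.75% in VitC+ (15 peaks) and 3.16% in VitC+/- (19 peaks). The 2 experiments were processed apart, so their shares are not compared. The members in it are H2-DMa (chr17:34135671-34138535), H2-DMb1 (chr17:34153191-34160229), H2-Ab1 (chr17:34263227-34269418) and H2-Eb1 (chr17:34305867-34316674) on the plus strand and H2-Aa (chr17:34282751-34287771) on the minus strand. Ciita lies at chr16:10480072-10527564 and Ctss at chr3:95526786-95556403, both on the plus strand (mm10).

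MC3T3-E1 cells are of the osteoblast lineage, which is not among the usual presenting cells. H3K27me3, the mark of Polycomb repression, had peaks within 5 kb of the start of 6 of the 8 members in both lists, all but Cd74 and Ctss. Within that window it covered 9371 bp around H2-Aa with VitC and 10001 bp without, 8529 and 10001 bp around H2-Eb1, 7364 and 9582 bp around Ciita and 7206 and 7747 bp around H2-Ab1. At H2-DMb1 there were 4384 and 6966 bp, and at H2-DMa 4033 and 3488 bp. Over the body of H2-DMb1 itself there was none with VitC and 4304 bp without. Over all genes 31.5% had such a peak with VitC and 35.9% without. No member passed the fold of 2, where 11.8% of genes were lower and 1.41% higher with VitC. The members are not separate here: without VitC, 1 peak of 38085 bp gave the 10001 bp at both H2-Aa and H2-Eb1. The peaks were also weak. With −log10 q of at least 5 no member kept an H3K27me3 peak, and of all genes 0.0276% did with VitC and 1.77% without.

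H3K9me3 was found at 2 members only in cells without VitC, at H2-Aa (1354 bp) and H2-DMb1 (879 bp), and both were called lower with VitC, where 4.72% of genes were lower and 1.17% higher. For 5hmC, 2 members were called higher with VitC, H2-DMa (4021 bp against none) and H2-Aa (639 bp against none), where 33.2% of genes were higher. Another 2 were called lower, Ciita (236 against 1919 bp) and H2-Eb1 (none against 719 bp), where 11.3% were lower. The lists without VitC covered more in all for H3K27me3 (233 against 145 Mb) and H3K9me3 (66.8 against 44.0 Mb) and less for 5hmC (149 against 197 Mb).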

How the data were processed

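Femur RNA-seq of 21 libraries and 10 pooled peak lists were used. For the VitC femurs the authors deposited RPKM per gene and library, and for the Tet femurs counts normalized by DESeq2, a signal that is no longer a whole count. The submitters' notes name Trim Galore 0.4.3.1, STAR 2.6.0b-1, featureCounts 1.6.3, DESeq2 2.11.40.2, BWA 0.7.15.1, MACS2 2.1.1.20160309.6 and mm10; which tool made the RPKM is not given in the sources used here. The deposited MACS2 lists give positions, fold enrichment (a ratio) and −log10 p and q values, with −log10 q from 1.30 for 5hmC and 1.01 for histone marks. Both VitC femur lists hold autosomes only. The labels give 28 days of culture for 5hmC, while peak names and methods give a shorter culture for the histone lists.

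RPKM were divided by median-of-ratios factors (0.757 to 1.10), and log2(RPKM + 0.5) of 12586 genes with at least 1 RPKM in 3 libraries was fitted with limma 3.58.1 in R 4.3.3, over all 9 libraries. Tet values, log2(normalized count + 1) of 16780 genes with at least 10 in 3 libraries, were fitted likewise over 12 libraries. All 8 members passed both filters. P-values were adjusted by Benjamini and Hochberg. Reads were recovered from steps in the values (100% whole within 0.01 in Tet libraries, 28.6 to 49.8 M reads; 92.6 to 93.9% within 0.1 in VitC libraries, used for depth only), and tested with edgeR 4.0.16 and DESeq2 1.42.0 without Tet1 cKO replicate 3 as alternatives. The limma script was tested on simulated data. Peaks were counted within 5 kb of gene starts, with covered lengths + 500 bp and a fold of 2.

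The members, lists and tests were chosen with earlier results of these data known. Named in the text are all members, their close relatives and, of each list, up to 3 genes with the highest mean past the threshold and up to 2 not past it, fixed defining markers, and the 10 genes most like the members. Deviations of same-numbered libraries had r from -0.19 to 0.46 in the VitC femurs and from -0.57 to 0.53 in the Tet femurs. Between libraries of different numbers r ran from -0.37 to 0.42 and from -0.62 to 0.55. These ranges overlap, so replicate numbers were not used as a block in the main tests, although some pairing is not excluded. Alternatives were other pseudocounts, filters, scalings, groups fitted, a replicate block, libraries left out, and other windows and thresholds for peaks. Input libraries were not used here. Results for some listed genes are not reported here.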

Additional observations from a re-analysis of the deposited data

How the results depend on the processing

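The direction of the 7 members that were lower in VitC+/- than in VitC+ and WT held under every alternative tried. Against VitC+, Cd74, H2-Eb1 and H2-DMa were called in 17 of 17 alternatives, H2-Aa in 14, H2-Ab1 in 13, H2-DMb1 in 8 and Ciita in 3 of 16, since a filter on all 9 libraries drops it. Against WT the counts were 17 for Cd74, H2-Eb1, H2-DMa and H2-Ab1, 16 for H2-Aa, 14 for H2-DMb1 and 4 of 15 for Ciita. Ctss was called in none. The number of members called against VitC+ ran from 3 to 7 with single libraries left out and was 3 without both libraries whose Gulo level went against the label. Against WT it ran from 5 to 7. With a replicate block 6 members were called in either comparison, Ciita being lost against WT (log2 -0.77, adjusted p = 0.0657), and no other call of a member changed. Over all genes the block gave 1206 lower and 963 higher calls against VitC+ (946 and 746 without), and 184 lower and 590 higher between VitC+ and WT (0 and 0 without). Leaving out both doubtful libraries gave 169 and 84 against VitC+ and 829 and 820 against WT (2003 and 1931 with them).

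Between VitC+ and WT, where no member was called, signs turned without both doubtful libraries for H2-Aa (-0.040), H2-Ab1 (-0.27), H2-Eb1 (-0.15), Ciita (-0.092) and H2-DMb1 (-0.19), and for H2-DMb1 with RPKM as deposited (-0.037). With single libraries left out they ran from -0.087 to 0.60 for H2-Ab1, -0.077 to 0.23 for Ciita and -0.26 to 0.44 for H2-DMb1. In Tet1 cKO such ranges were -0.36 to 0.00044 for H2-Ab1, -0.40 to 0.016 for H2-Eb1, -0.35 to 0.33 for Ciita, -0.44 to 0.19 for H2-DMa and -0.040 to 0.24 for H2-DMb1. In Tet2 cKO they were -0.45 to 0.10 for H2-Ab1, -0.49 to 0.18 for H2-Eb1, -0.48 to 0.17 for Cd74, -0.40 to 0.37 for Ciita, -0.57 to 0.085 for H2-DMa and -0.44 to 0.10 for H2-DMb1. In Tet1/2 cKO they were -0.59 to 0.081 for Ciita, -0.020 to 0.27 for H2-DMa, -0.25 to 0.028 for H2-DMb1 and -0.018 to 0.33 for Ctss.

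Counts of members by covered peak length also moved. For 5hmC of Tet1/2 cKO femurs 4 members were lower with 30 kb, where 54.6% of all genes were. Over gene bodies 5 were lower, where 38.4% of all genes were. For 5hmC of MC3T3-E1 cells the 2 lower members became 0 with 30 kb, 0 over gene bodies and 1 with −log10 q of at least 5, and the 2 higher became 0 over gene bodies. Of all genes 25.8%, 13.5% and 10.1% were lower in these settings, and 30.8% were higher over gene bodies. For H3K9me3 the 2 lower became 1 with 30 kb, 1 over gene bodies and 0 with −log10 q of at least 5, where 21.0%, 9.33% and 0.0322% of all genes were lower. For H3K27me3 there was 1 lower over gene bodies, where 10.5% of all genes were lower. When a peak counted by its midpoint 4 were higher, where 6.47% of all genes were. The 38085 bp peak without VitC spans the windows of H2-Aa and H2-Eb1, but its midpoint lies outside both. It was therefore not counted there, so these calls do not show a gain of H3K27me3 with VitC at H2-Aa and H2-Eb1. The causes were not tested.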

Other observations

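H2-Ea, the α chain of I-E, was listed at 0 in every Ctrl, Tet1 cKO and Tet2 cKO library but at 8.39 and 1.52 normalized counts in 2 of the 3 Tet1/2 cKO libraries. H2-Eb2 was at most 0.418 scaled RPKM in the VitC femurs and did not pass the filter there.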
